A study of Mus musculus with 2 samples.

Results

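Complement is a cascade of plasma proteins that tags targets for removal and calls in leukocytes. C1q, built from the chains encoded by C1qa, C1qb and C1qc, starts the classical pathway when it meets antibody or dying cells, and in the spleen it is mainly a product of macrophages. All pathways meet at C3, properdin (Cfp) steadies the enzyme that amplifies C3 cleavage, and the split products C3a and C5a act on leukocytes through the receptors C3ar1 and C5ar1. Cd93, first described as a C1q receptor and still grouped with that name, is a surface glycoprotein of early myeloid and endothelial cells.

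These 8 genes, C1qa, C1qb, C1qc, C3, Cfp, C5ar1, C3ar1 and Cd93, were taken by symbol from 32285 genes measured by single-cell 3′ RNA sequencing of mouse spleen. All 8 were found. The list was drawn up with earlier results of these data known. The cells had been frozen alive, sorted for CD45.2 and CD11b, and came from 1 library labelled high B12 and 1 labelled low B12. CD45.2 is one allele of a surface antigen that all leukocytes carry. CD11b is the integrin chain that binds a C3 fragment on neutrophils, monocytes and parts of other lineages. The series title places the comparison in Tet2-deficient blood formation. The labels give no genotype, strain, age, dose, duration or number of mice for either library, so whether animals were pooled is not known here.

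The high-B12 library held 46994991 UMIs (unique molecular identifiers, one per captured RNA molecule) and the low-B12 library 48884220. Droplets kept as cells had 500 UMIs or more, 200 genes or more and no more than 10% mitochondrial UMIs, and numbered 6748 in high B12 and 6510 in low B12, with medians of 4327 and 5695 UMIs. The 2 libraries shared 4 of their cell barcodes. Barcodes were assigned by first match to 7 classes, and the high-B12 library was richer in neutrophils (39.6%, against 14.5% in the low-B12 library) and poorer in B cells (9.97%, against 28.5%). NK cells made up 12.5% and 14.5%, conventional dendritic cells (cDC) 5.97% and 7.36%, Ly6c2-group monocytes 9.69% and 12.5%, other monocytes 2.79% and 6.91%, and unmatched barcodes 19.5% and 15.8% of the high-B12 and the low-B12 library. In both libraries 10 of 10 neutrophil markers were at 50 CPM (counts per 1e+06 UMIs) or more in neutrophils. So were 8 of 8 B and 8 of 8 NK markers in those classes and 8 of 10 cDC markers in cDC. The same held for 8 of 8 classical monocyte markers in Ly6c2-group monocytes and 9 of 9 nonclassical monocyte markers in other monocytes. The marker lists include the genes that set the classes, so part of this was fixed in advance. The lists were also not particular to a class. In both libraries Ly6c2-group monocytes reached 7 of 9 nonclassical markers and unmatched barcodes 7 of 8 classical markers.

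With 1 library per condition there was no test between conditions. A level is the CPM of a gene in the summed UMIs of a class, and a ratio is high B12 over low B12. Intervals (95%) cover the error of counting alone, not the spread between animals or between barcodes, and PCR copies are already merged by the UMIs. What B12 did and what sets any pair of libraries apart cannot be told apart.

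C1qa, C1qb and C1qc lie side by side on chromosome 4 (GRCm38, 136880129 to 136898803, minus strand), a span of 18675 bases, in the order C1qb, C1qc, C1qa by coordinate. RefSeq promoter windows of GRCm38.p6 were at hand for 6 of the 8 members. They were searched on both strands for the letters GAGGAA (a PU.1-type motif), TTGCNNAA (C/EBP-type) and for an interferon-stimulated response element motif, which occur in 28.3%, 10.8% and 3.44% of 32851 windows of 300 bases. PU.1 and C/EBP factors are general regulators of myeloid genes. The windows of C1qb and C1qc are shown because these genes were detected together, and that of C3 because it was high in neutrophils and monocytes. Each covers the 250 bases before the start site, on the minus strand, at chr4:136886201-136886450 for C1qb, chr4:136892915-136893164 for C1qc and chr17:57228137-57228386 for C3, with motif matches in capitals.
C1qb: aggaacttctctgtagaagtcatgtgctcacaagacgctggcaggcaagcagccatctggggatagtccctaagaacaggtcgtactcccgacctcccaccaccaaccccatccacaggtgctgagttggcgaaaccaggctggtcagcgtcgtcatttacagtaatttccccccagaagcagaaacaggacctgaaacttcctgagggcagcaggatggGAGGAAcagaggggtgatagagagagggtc
C1qc: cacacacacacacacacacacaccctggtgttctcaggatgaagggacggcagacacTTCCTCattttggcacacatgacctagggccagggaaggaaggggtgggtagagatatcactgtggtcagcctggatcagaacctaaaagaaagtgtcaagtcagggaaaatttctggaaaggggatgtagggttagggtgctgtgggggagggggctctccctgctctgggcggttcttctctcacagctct
C3: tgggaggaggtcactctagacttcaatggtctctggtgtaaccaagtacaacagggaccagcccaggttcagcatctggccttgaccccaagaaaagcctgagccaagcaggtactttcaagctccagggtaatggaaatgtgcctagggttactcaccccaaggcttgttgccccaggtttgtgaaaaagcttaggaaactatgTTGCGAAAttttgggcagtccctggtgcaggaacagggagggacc
The C1qb window holds GAGGAA beginning 30 bases before the start, the C1qc window holds it on the opposite strand (TTCCTC) beginning 193 bases before, and the C3 window holds TTGCGAAA beginning 45 bases before. A match describes the letters and is not a binding site. The Cfp window has its matches (TTCCTC at 6 and 22 bases) after the start site, and the C5ar1 and C3ar1 windows hold no match to any of them. Windows for C1qa and Cd93 were not used here.

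The members differed in which class held their highest level, as the plot of levels by class and library shows. C5ar1 led in neutrophils, C3 in neutrophils and Ly6c2-group monocytes, and Cfp in cDC and unmatched barcodes. Cd93 led in Ly6c2-group monocytes and the C1q genes in other monocytes, while C3ar1 stayed at or below 4.03 CPM in every class of both libraries. NK cells had the lowest or second lowest level of every member but Cd93 in both libraries.

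**Figure D1:**
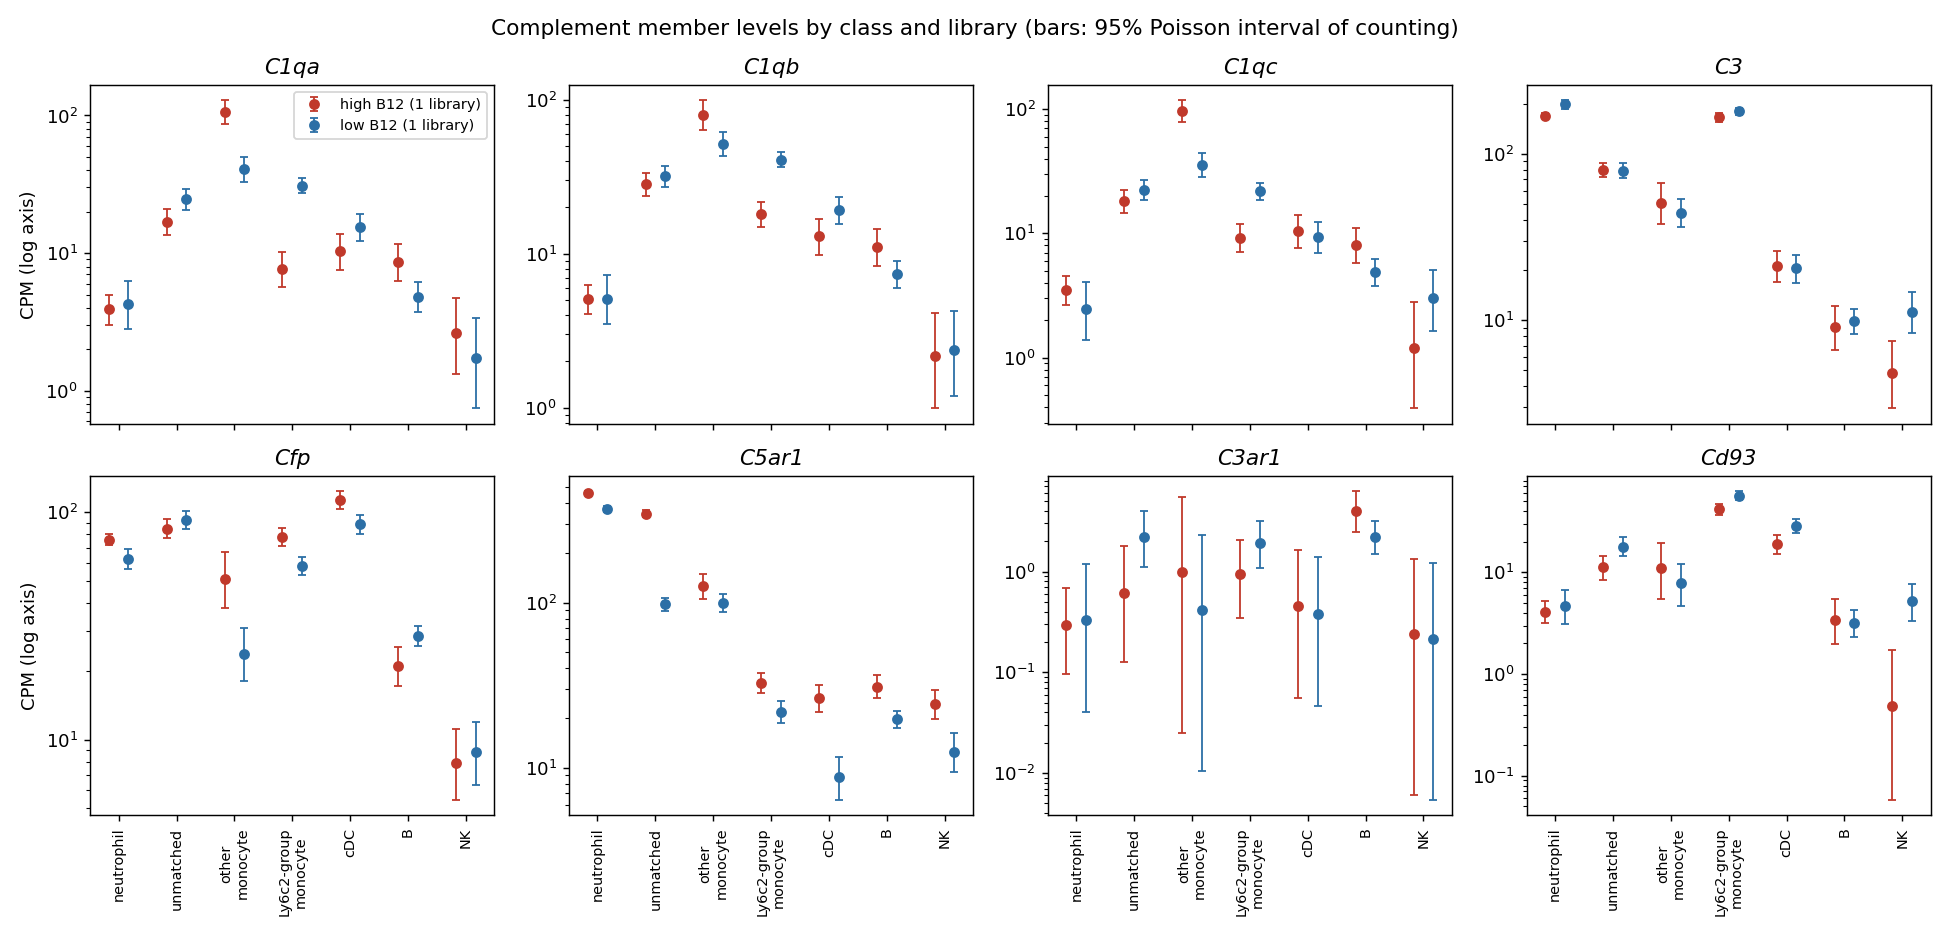
Levels of the 8 members in the 7 classes, in CPM on a log axis, with high B12 left of low B12 in each class. Points are 1 library each and bars are 95% Poisson intervals of counting. Among the largest gaps between libraries are C5ar1 in unmatched barcodes (345 CPM in high B12, 97.6 CPM in low B12) and C1qa in Ly6c2-group monocytes (7.67 CPM in high B12, 30.9 CPM in low B12).

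Of 56 member-by-class pairs, 45 had at least 50 UMIs over both libraries. By the size rule of 1.5-fold, 11 were higher and 7 were lower in the high-B12 library. Over all genes the same rule called 3.45% of 66057 gene-by-class pairs higher and 8.98% lower. The median log2 ratio of the 45 pairs was 0.04. The median over all genes was below 0 in every class, -0.22 in neutrophils, -0.12 in B cells, -0.11 in NK cells and -0.10 in unmatched barcodes, and between -0.08 and -0.05 in the other classes. With each class centred on that median, 14 pairs were higher and 4 were lower. Centring raises the ratio of every gene, so the shares above do not apply to these counts. The share of all genes after centring was not computed.

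By class, 4 of 8 measured members were higher in high-B12 B cells (C1qa, C1qc, C5ar1 and C3ar1) and none lower, against 2.91% and 8.83% of all genes measured there. In other monocytes 4 of 6 were higher (the C1q genes and Cfp) and none lower, against 5.8% and 9.24%. In Ly6c2-group monocytes none of 7 was higher and 3 were lower (the C1q genes), against 2.62% and 3.95%. The C1q genes thus make up most of the calls in these 3 classes, and they rest on few barcodes, as described with them. In cDC 1 of 7 was higher (C5ar1) and 2 were lower (C1qa and Cd93), against 2.22% and 5.97%, and in unmatched barcodes 1 of 7 was higher (C5ar1) and 1 lower (Cd93), against 7.04% and 11.1%. In NK cells 1 of 3 was higher (C5ar1) and 1 lower (C3), against 2.2% and 7.5%. None of 7 passed in neutrophils, against 1.95% and 16%. Over all cells together 1 of 8 members was higher (background 7.21% of 13947 genes) and 3 were lower (20.3%).

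C5ar1, the receptor through which C5a draws and activates neutrophils, was the member with the largest difference over all cells. It stood at 238 CPM in high B12 and 78.2 CPM in low B12, 3.04-fold higher (2.93 to 3.16). Weighting the high-B12 classes by the low-B12 class shares left a ratio of 1.64. Neutrophils held 76.4% of C5ar1 UMIs in high B12 and 63.7% in low B12.

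Within neutrophils C5ar1 was at 460 CPM (450 to 471) in high B12 and 367 CPM (352 to 382) in the low-B12 library, a ratio of 1.26 (1.20 to 1.32), below the 1.5-fold rule. A C5ar1 UMI was seen in 83.8% of high-B12 and 80.7% of low-B12 neutrophils, and in 44.6% and 42.5% after thinning each cell to 1000 UMIs. NK cells, which serve as background, showed one in 3.67% (high B12) and 1.59% (low B12) at medians of 4478 and 4216.5 UMIs, called doublets included. The thinned shares of the neutrophils had overlapping intervals.

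Neutrophils with at least 1% of UMIs from the secondary granule genes Camp, Ngp and Ltf, a mark of earlier maturation, had much less C5ar1 than the others. In the high-B12 library they had 197 CPM, against 843 CPM in the remaining neutrophils, 4.28-fold lower. In the low-B12 library the values were 169 and 712 CPM, 4.22-fold lower. Granule-rich neutrophils made up 743 of 2672 neutrophils in high B12 and 263 of 942 in low B12, with medians of 12069 and 12111 UMIs, against 3085 and 2710 in the remaining neutrophils. Within each of these parts the ratio between libraries was close to that of the whole class, 1.17 (1.07 to 1.28) in granule-rich and 1.18 (1.12 to 1.25) in the remaining neutrophils.

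C5ar1 was 3.54-fold higher (3.20 to 3.92) in unmatched barcodes, at 345 CPM in high B12 and 97.6 CPM in low B12. The neutrophil markers moved with it. Their summed level in unmatched barcodes was 10933 CPM in high B12 and 4683 CPM in low B12, with 8 and 5 of 10 at 50 CPM or more and none at 0. Unmatched barcodes with at least 0.5% of UMIs from S100a8 and S100a9, the calprotectin genes that set the neutrophil limit, were 46.7% of the class in the high-B12 library (613 of 1314) and 21.5% in the low-B12 library (221 of 1026). They held 86.9% of its C5ar1 UMIs in the high-B12 library and 78.9% in the low-B12 library.

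In those calprotectin-bearing barcodes C5ar1 stood at 1017 CPM in high B12 and 614 CPM in low B12, a ratio of 1.66 (1.48 to 1.86). Csf3r, the G-CSF receptor of neutrophils, differed less there, at 3558 CPM in high B12 and 3445 CPM in low B12 (1.03, 0.982 to 1.09). In the other unmatched barcodes C5ar1 was at 64.1 and 23.5 CPM (2.73, 2.15 to 3.48) and Csf3r moved with it, at 261 and 116 CPM (2.25, 2.01 to 2.51), high B12 given first. Whether neutrophil RNA adds to these values was not tested.

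Along the calprotectin share C5ar1 did not follow S100a8 and S100a9. Its level peaked at 1154 CPM in the 1 to 2% bin of the high-B12 library and at 729 CPM in the 2 to 5% bin of the low-B12 library, and was 287 and 196 CPM at 20% or more. Between those ends, at 10 to 20%, it was 798 CPM in high-B12 and 489 CPM in low-B12 barcodes. Every bin was higher in the high-B12 library. The bin from 0.5 to 1% held 97 high-B12 and 22 low-B12 barcodes.

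**Figure D2:**
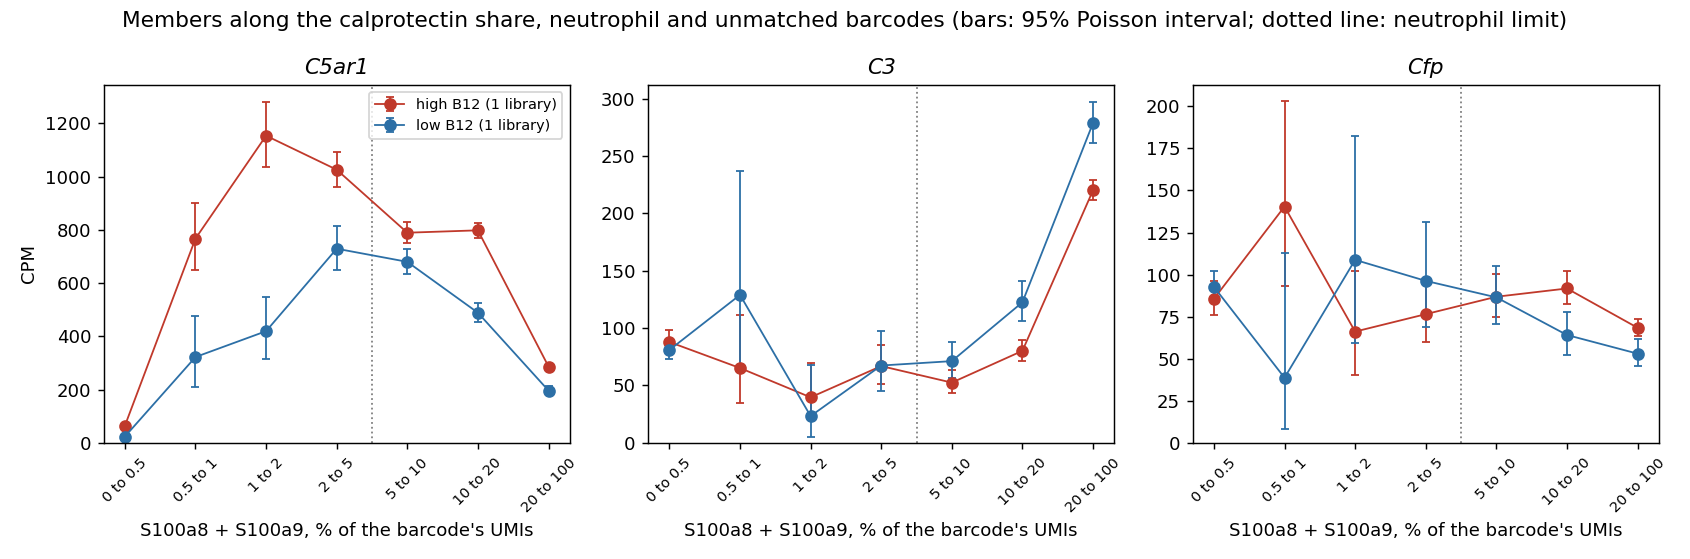
C5ar1, C3 and Cfp in CPM across bins of the calprotectin share (S100a8 plus S100a9, % of a barcode's UMIs) in neutrophil and unmatched barcodes together, with 95% Poisson intervals; the dotted line is the neutrophil limit of 5%. C5ar1 is highest at low to middle shares, C3 is highest at 20% or more (220 CPM in high B12, 279 CPM in low B12), and Cfp shows no such slope.

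Outside these classes C5ar1 was next highest in other monocytes, at 126 CPM in high B12 and 99.6 CPM in low B12 (1.26, 1.01 to 1.57). Ly6c2-group monocytes had 32.7 and 21.9 CPM, 3.84-fold and 4.55-fold below other monocytes of the same library (high B12 first). Called doublets held 51.2% of the C5ar1 UMIs of Ly6c2-group monocytes in high B12 and 41.8% in low B12, and 16.9 and 13.4 CPM were left without them. In other monocytes called doublets held 23.0% and 21.5%, and 103 and 84.3 CPM were left. C5ar1 was thus higher in other monocytes than in the Ly6c2 group in both libraries. Summed neutrophil markers differed the same way. They stood at 5254 CPM (high B12) and 3538 CPM (low B12) in other monocytes, against 2561 and 1716 CPM in the Ly6c2 group. Whether neutrophil RNA adds to C5ar1 in other monocytes was not tested.

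Ratios past 1.5-fold were also seen in cDC (26.3 CPM in high B12 and 8.79 CPM in low B12, 3.0-fold, 2.11 to 4.31), NK cells (24.3 and 12.5 CPM, 1.94-fold, 1.39 to 2.73) and B cells (31.1 and 19.7 CPM, 1.58-fold, 1.29 to 1.93). The 10 leading barcodes held 74.8% of them in high-B12 and 78.3% in low-B12 cDC, and 68.3% and 91.4% in NK cells. Summed neutrophil markers differed the same way, at 2286 CPM (high B12) and 1347 CPM (low B12) in cDC, 1965 and 685 CPM in NK cells, and 2814 and 1682 CPM in B cells, with none at 0. C5ar1 in barcodes of 50 UMIs or fewer, taken as free RNA, was 131 CPM in high B12 and 49.0 CPM in low B12. The share of free RNA that S100a8 and S100a9 allow in B and NK cells corresponds to 3.03 CPM of C5ar1 in high B12 and 1.72 CPM in low B12.

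Barcodes that Scrublet, a doublet caller, marked as 2 cells in 1 droplet carried most of these C5ar1 UMIs. In B cells they held 139 of 154 C5ar1 UMIs in high B12 and 232 of 265 in low B12, while they were 10.1% and 12.2% of the B barcodes. In NK cells they held 90 of 101 and 58 of 58, and in cDC 81 of 115 and 34 of 46, high B12 first. Without them C5ar1 stood at 3.62 and 3.11 CPM in B cells, at 2.92 and 0 CPM in NK cells and at 8.27 and 2.50 CPM in cDC. Fewer than 50 UMIs were then left over both libraries in each of these classes (34 and 12 in cDC), below the minimum for a ratio, so whether doublets made up these differences was not tested. In neutrophils the same step left 486 CPM in high B12 and 407 CPM in low B12, and in unmatched barcodes 347 and 96.1 CPM.

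C3, the protein on which the pathways converge, was a neutrophil and monocyte transcript in these cells. Neutrophils had 169 CPM (163 to 175) in high B12 and 198 CPM (187 to 209) in low B12. Ly6c2-group monocytes had 166 CPM (156 to 176) and 180 CPM (170 to 189), in the same order. The intervals of these 2 classes overlapped within each library, so their order is not resolved by counting. Unmatched barcodes followed with 79.96 and 79.1 CPM, then other monocytes with 50.8 and 44.1 CPM and cDC with 21.1 and 20.4 CPM. B cells had 9.07 CPM in high B12 and 9.87 CPM in low B12.

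The 2 leading classes reached that level in different ways. A C3 UMI was seen in 67.7% of high-B12 and 68.1% of low-B12 Ly6c2-group monocytes, and in 31.5% and 32.6% of neutrophils, against 1.18% and 2.33% of NK cells. After thinning to 1000 UMIs the shares were 16.1% and 17.2% in Ly6c2-group monocytes and 8.91% and 8.34% in neutrophils. Within neutrophils C3 was concentrated in the granule-rich part, at 254 CPM against 45.6 CPM in the remaining neutrophils of the high-B12 library (5.57-fold, 4.95 to 6.28), and at 280 CPM against 54.8 CPM in the low-B12 library (5.10-fold, 4.22 to 6.20). This is the reverse of the C5ar1 pattern in the same barcodes. The few unmatched barcodes with the primary granule genes Elane, Mpo and Prtn3 (10 in high B12, 6 in low B12) had 279 and 340 CPM of C3.

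Among monocytes C3 was on the classical side. It was 3.26-fold higher (2.46 to 4.41) in Ly6c2-group than in other monocytes of the high-B12 library and 4.08-fold higher (3.35 to 5.01) in the low-B12 library. Between libraries C3 passed 1.5-fold in 1 class, NK cells, with 20 UMIs in high B12 and 52 in low B12 (2.33-fold lower), and there called doublets held 16 of the 20 and 46 of the 52, which left 4 and 6. In neutrophils the log2 ratio of -0.23 was close to the -0.22 median of all genes. Over all cells C3 was 1.39-fold higher in high B12, and 0.912 of the low-B12 level once the class shares of the low-B12 library were applied.

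Cfp, which encodes properdin, was spread over the myeloid classes. cDC had 113 CPM (103 to 123) in high B12 and 88.4 CPM (80.6 to 96.9) in low B12, with a UMI in 53.3% and 45.9% of cells. Unmatched barcodes had 84.9 and 92.6 CPM, Ly6c2-group monocytes 78.0 and 58.1 CPM and neutrophils 75.8 and 62.4 CPM, high B12 first. In the high-B12 library the last 3 had overlapping intervals between neighbours, and in the low-B12 library unmatched barcodes and cDC did. B cells had 21.2 CPM in high B12 and 28.6 CPM in low B12, and NK cells 7.94 and 8.85 CPM with a UMI in 2.84% and 2.96% of cells.

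Cfp was higher in the high-B12 library in 4 myeloid classes, by 1.21-fold in neutrophils (1.08 to 1.37), 1.28-fold in cDC (1.12 to 1.45), 1.34-fold in Ly6c2-group monocytes (1.18 to 1.53) and 2.13-fold in other monocytes (1.43 to 3.15). The last passed 1.5-fold, with 50.8 CPM in high B12 and 23.9 CPM in low B12. It rested on 51 and 58 UMIs, of which the 10 leading barcodes held 78.4% and 41.4%. A Cfp UMI was present in 11.2% of high-B12 and 9.78% of low-B12 other monocytes. Granule-rich neutrophils had 1.60-fold less Cfp than the remaining neutrophils in both libraries, 60.9 against 97.5 CPM in high B12 and 51.2 against 82.0 CPM in low B12. C5ar1 and Cfp were thus both lower in granule-rich neutrophils while C3 was higher.

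Cd93 was a Ly6c2-group monocyte transcript. Its level there was 41.8 CPM (36.9 to 47.1) in high B12 and 57.0 CPM (51.8 to 62.5) in low B12, with a UMI in 26.6% and 33.0% of cells, against 0.237% and 1.48% of NK cells. Other monocytes had 10.96 and 7.82 CPM, so Cd93 was 3.81-fold higher (2.1 to 7.73) in the Ly6c2 group in high B12 and 7.28-fold higher (4.61 to 12.2) in low B12. After thinning, the shares in Ly6c2-group monocytes were 5.05% and 5.65%.

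Between libraries Cd93 was 1.52-fold lower in high-B12 cDC (19.0 CPM, against 28.8 CPM in low B12; ratio 0.659, 0.498 to 0.866) and 1.60-fold lower in unmatched barcodes (11.2 CPM in high B12, 18 CPM in low B12). In Ly6c2-group monocytes it was 1.36-fold lower, short of the rule. Neutrophils and B cells stayed at or below 4.62 CPM in both libraries.

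C3ar1, the receptor for C3a, was nearly absent from the counts. Its UMIs numbered 38 in high-B12 and 62 in low-B12 cells, 0.892 and 1.39 CPM. B cells held 20 and 30 of them, in 9 and 12 barcodes, and 1 barcode alone carried 8 of the 20 in high B12 and 16 of the 30 in low B12. The B cell ratio of 1.81 (0.976 to 3.30) therefore rests on a handful of barcodes. In neutrophils 5 of 2672 high-B12 and 2 of 942 low-B12 barcodes had a C3ar1 UMI. In every class but B cells fewer than 50 C3ar1 UMIs were counted over both libraries, so no ratio was formed.

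The UMIs of the C1q genes were concentrated in few barcodes, as were those of C3ar1 in B cells. At least 1 C1q UMI was present in 160 high-B12 barcodes (2.37%) and 221 low-B12 barcodes (3.39%). Barcodes with at least 3 C1q UMIs were 83 (1.23%) in high B12 and 109 (1.67%) in low B12, and held 92.7% and 93.3% of all C1q UMIs. Barcodes with at least 10 were 32 and 40, and held 71.6% and 74.7%. The richest single barcode had 94 UMIs in the high-B12 library and 300 in the low-B12 library, as the ranked plot shows.

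**Figure D3:**
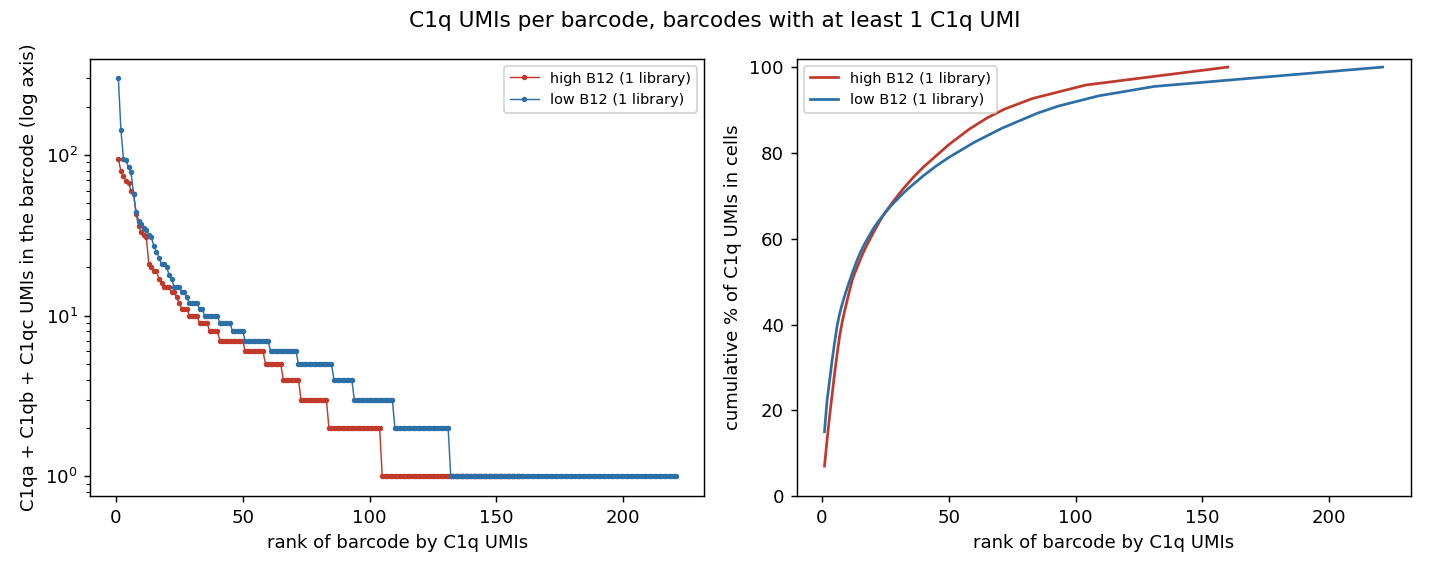
Left, C1qa, C1qb and C1qc UMIs summed per barcode against the barcode's rank (log axis for UMIs); right, the cumulative percentage of C1q UMIs in cells. The curve of each library, 1 library per condition, falls steeply: 32 high-B12 and 40 low-B12 barcodes hold over 70% of the UMIs.

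The genes of the C1q chains were detected together. Of barcodes with C1qa, 74.0% also held C1qb in the high-B12 library (71 of 96, 64.0 to 82.4%) and 66.4% in the low-B12 library (79 of 119, 57.2 to 74.8%). C1qc was present in 63.5% (high B12) and 62.2% (low B12) of them. Over all cells C1qb was seen in 1.81% of high-B12 and 2.33% of low-B12 barcodes, which is the level against which joint detection reads.

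Barcodes rich in C1q also carried several macrophage genes, along with genes of other cell types. With 3 or more C1q UMIs, 10 of 14 tissue and red pulp macrophage markers reached 50 CPM in the high-B12 library and 7 of 14 in the low-B12 library, against 4 of 14 in each library for Csf1r-positive monocytes without a C1q UMI. Vcam1, an adhesion molecule of splenic red pulp macrophages, stood at 269 CPM in high-B12 and 102.1 CPM in low-B12 C1q-rich barcodes, against 1.02 and 0.742 CPM in C1q-free monocytes. Slc40a1, the iron exporter ferroportin, stood at 283 and 95.6 CPM, against 11.6 and 13.8 CPM. Spic, the transcription factor of red pulp macrophages, stood at 108 and 43.6 CPM, against 17.7 and 9.54 CPM. Other markers on the list were not higher there: Apoe stood at 1468 and 1603 CPM in C1q-rich barcodes, against 2343 and 2411 CPM, and Cd68 at 211 and 173 CPM, against 228 and 232 CPM. The neutrophil gene S100a8 was also higher in C1q-rich barcodes, at 23705 CPM in high B12 and 9212 CPM in low B12, against 1152 and 772 CPM in C1q-free monocytes. The B cell gene Cd79a was at 138 and 345 CPM, against 1.89 and 3.71 CPM. C1q-rich barcodes come from all classes and the comparison barcodes from monocytes alone, and the part of class in these values was not tested. Over other monocytes as a class the 14 markers summed to 3190 CPM in high B12 and 3789 CPM in low B12. Over Ly6c2-group monocytes they summed to 2888 and 2671 CPM, and over B cells to 1056 and 1144 CPM. Marco and Timd4, which mark other tissue macrophages, were at or near 0 in C1q-rich barcodes (Marco 0 and 5.57 CPM, Timd4 1.30 and 2.79 CPM).

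The class rule has no macrophage class, and C1q-rich barcodes fell into every class. The 83 high-B12 barcodes with 3 or more C1q UMIs comprised 16 neutrophil, 5 B, 3 NK, 15 cDC, 17 Ly6c2-group, 8 other monocyte and 19 unmatched barcodes. The 109 low-B12 ones comprised 8, 23, 4, 11, 28, 18 and 17 in the same order of classes. Scrublet marked 13.3% of them in high B12 (11 of 83, 6.81 to 22.5%) and 11.01% in low B12 (12 of 109, 5.82 to 18.4%), against 4.88% and 7.30% of all cells. With called doublets left out, the log2 ratio of C1qa in Ly6c2-group monocyte barcodes was -2.1 and that of C1qa in other monocyte barcodes 1.43, against -2.01 and 1.39 with them.

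Class levels of C1q thus rest on few barcodes. Other monocytes had the highest levels, C1qa 107 CPM, C1qb 79.7 CPM and C1qc 96.6 CPM in the high-B12 library, and 40.8, 51.9 and 35.8 CPM in the low-B12 library. Any C1q UMI was present in 6.91% of high-B12 and 6.0% of low-B12 other monocytes, against 0.948% and 1.16% of NK cells. In the low-B12 library the C1qa and C1qb intervals of other and Ly6c2-group monocytes overlapped, while in the high-B12 library those of other monocytes stood clear of every other class. These intervals leave out the spread between barcodes. Single high-B12 other monocytes held 94, 80 and 69 of the 284 C1q UMIs of the class, so the intervals do not settle the order of classes.

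Between libraries the C1q genes moved in opposite directions in the monocyte classes. In other monocytes C1qa was 2.61-fold (1.97 to 3.47), C1qb 1.54-fold (1.15 to 2.05) and C1qc 2.70-fold (2.0 to 3.65) higher in high B12. In Ly6c2-group monocytes C1qa was 4.03-fold lower (7.67 CPM in high B12, 30.9 CPM in low B12), C1qb 2.26-fold lower (18 and 40.7 CPM) and C1qc 2.37-fold lower (9.24 and 21.9 CPM). Shares of barcodes with a UMI did not differ in this way: for C1qa they were 4.79% and 3.78% in other monocytes and 2.91% and 2.83% in Ly6c2-group monocytes, high B12 first, with overlapping intervals.

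With the 1 barcode richest in C1q left out of each class and library, the other monocyte ratios were 2.21, 1.68 and 2.74 for C1qa, C1qb and C1qc, and the Ly6c2-group differences were 2.92-fold, 2.03-fold and 1.75-fold lower in high B12. In B cells C1qa was 1.80-fold and C1qc 1.65-fold higher with all barcodes, and at ratios of 0.958 and 0.970 without the richest one. In cDC C1qa was 1.5-fold lower with all barcodes and 1.87-fold higher without the richest one. These B and cDC calls therefore rest on the richest barcode of the class in a library. The monocyte ratios rest on few barcodes too. In other monocytes 4 high-B12 and 8 low-B12 barcodes had 10 or more C1q UMIs. They held 89.8% and 75% of the C1q UMIs of the class. In Ly6c2-group monocytes 4 and 11 such barcodes held 55.6% and 83.5%, high B12 first. When every monocyte was weighted the same, the C1qa log2 ratio in other monocytes was 0.09.

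**Figure D4:**
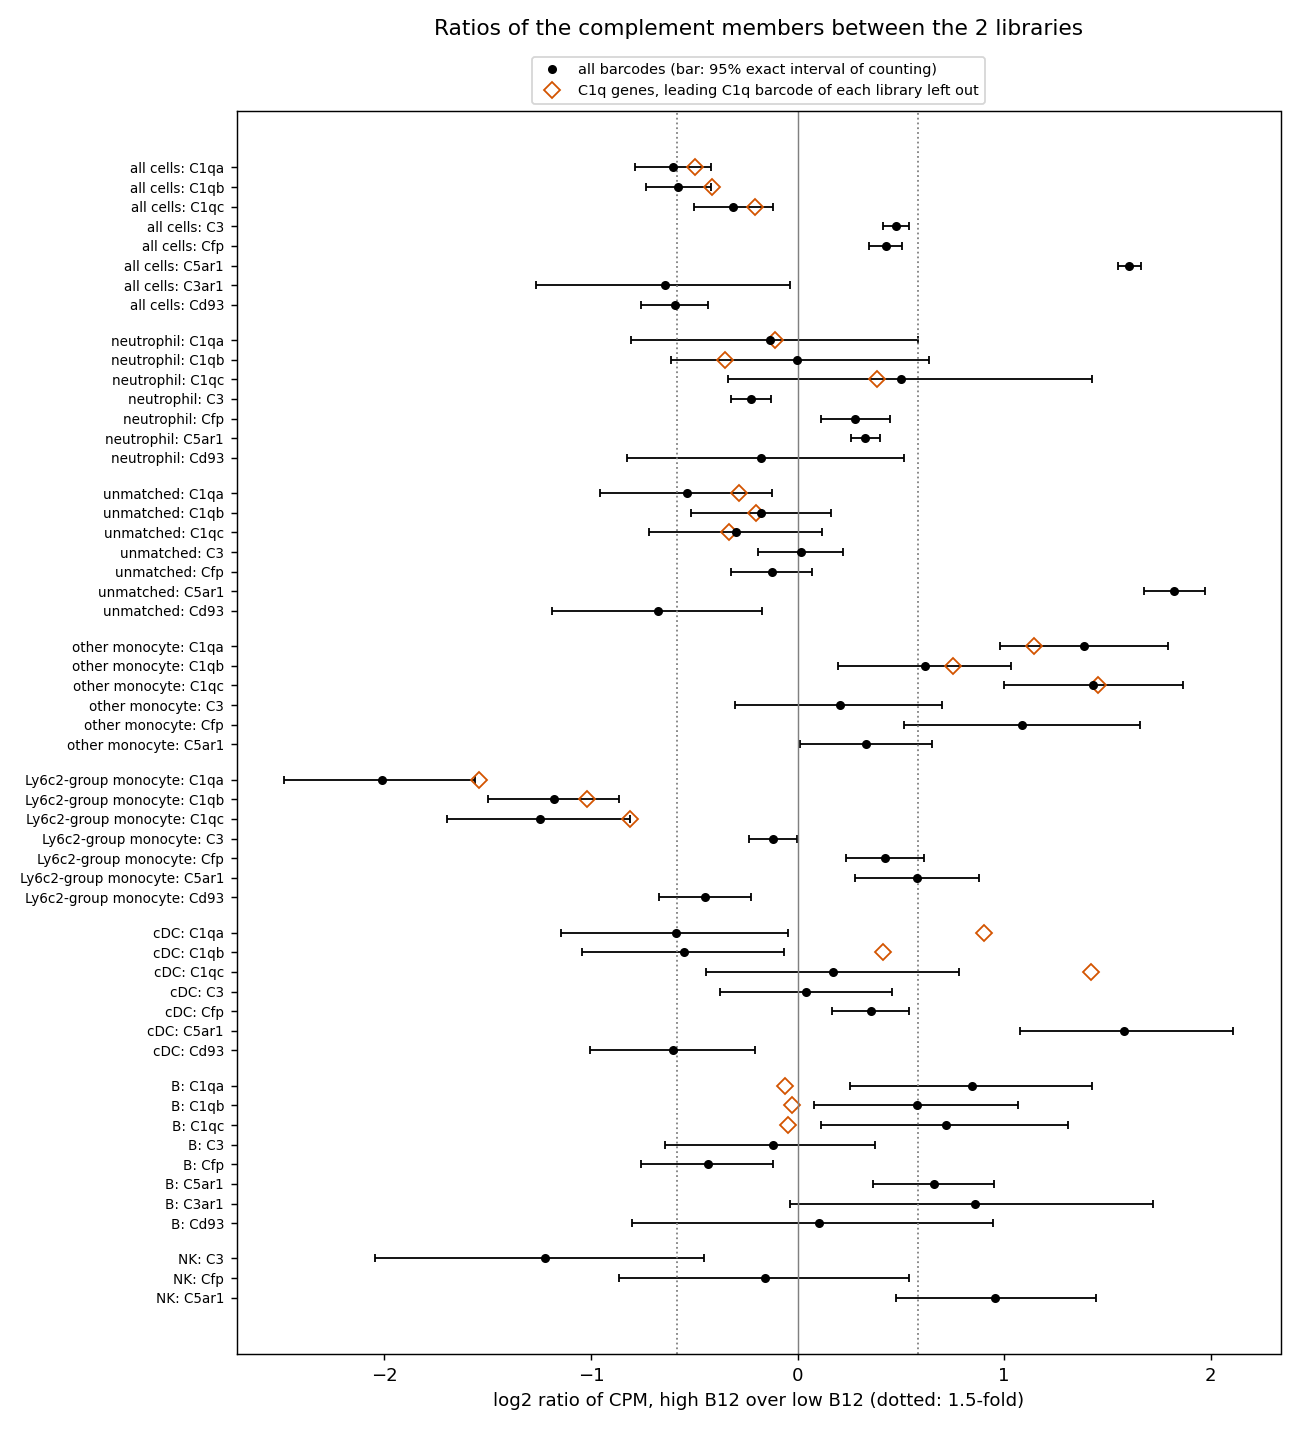
Log2 ratios, high B12 over low B12, of the 45 member-by-class pairs with enough UMIs and of all cells; bars are 95% exact intervals of counting and dotted lines mark 1.5-fold. Open diamonds give the C1q genes without the richest C1q barcode of each class and library. B cell ratios move to near 0, C1qa and C1qb in cDC move to the other side, and C1qc in cDC moves from 0.17 to 1.42.

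Over all cells the C1q genes were lower in the high-B12 library, C1qa at 9.48 CPM against 14.4 CPM in low B12 (1.52-fold lower), C1qb at 12.7 against 18.9 CPM (1.49-fold lower) and C1qc at 9.27 against 11.5 CPM (1.24-fold lower). At the class shares of the low-B12 library the ratios were 0.951, 0.869 and 1.15. Free RNA held 9.48 CPM of C1qa in high B12 and 33.1 CPM in low B12. The free-RNA share that S100a8 and S100a9 allow in B and NK cells corresponds to 0.219 and 1.16 CPM of C1qa.

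Beyond the members, 45 other complement genes were listed and all were in the files. At 50 CPM or more in at least 1 class were 1 of 13 genes of the classical and lectin pathways (Fcnb), 0 of 2 of the alternative pathway, 0 of 7 of the terminal pathway, 3 of 8 listed as membrane regulators (Cd55, Cr1l and Cd160, the last an NK receptor) and 8 of 9 receptors. The listed receptors at that level were Cr2, Itgam, Itgax, Itgb2, C5ar2, Calr, C1qbp and Lrp1, and Itgam encodes the CD11b used for sorting. The share of all genes at that level is not given here. By the 1.5-fold rule 0 of 12 measured genes were higher and 3 were lower in high-B12 neutrophils (background 1.95% and 16%), namely Itgax (21.4 CPM in high B12, 37.0 CPM in low B12), which encodes the alpha chain of complement receptor 4, C1qbp (2.85 and 6.94 CPM) and Lrp1 (10.6 and 29.4 CPM). Summed B cell markers in neutrophils were also lower in high B12 (206 and 565 CPM), as were nonclassical monocyte markers (454 and 730 CPM). NK markers were not (183 and 170 CPM). Called doublets held 12.6% of the UMIs of the class in high B12 and 20.9% in low B12. Whether RNA of other cells adds to these 3 genes was not tested.

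Fcnb, the ficolin of neutrophil granules, was at 276 CPM in high-B12 and 335 CPM in low-B12 neutrophils (ratio 0.822), and Itgam, which encodes CD11b itself, at 522 and 540 CPM. Itgb2, its partner chain in complement receptor 3, was at 296 and 317 CPM there. C5ar2, the second C5a receptor, was at 52.9 and 50.9 CPM in neutrophils (1.04, 0.913 to 1.19) and at 46.8 and 17.3 CPM in unmatched barcodes (2.70-fold, 2.1 to 3.5). Calprotectin-bearing unmatched barcodes held 86.9% of the C5ar2 UMIs of the class in high B12 and 73.3% in low B12. There C5ar2 was at 138 and 101 CPM (1.36, 1.02 to 1.84), short of the 1.5-fold rule. The other unmatched barcodes had 8.70 and 5.30 CPM (1.64, 0.921 to 2.96). Among the 7 whole classes C5ar2, like C5ar1, was highest in neutrophils in both libraries.

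In B cells 1 of 12 listed genes was higher (background 2.91%) and 2 were lower (8.83%), of which Itgax is described. Cd55, which speeds the decay of the C3-cleaving enzymes on the cell's own surface, was 1.95-fold higher (1.79 to 2.14), at 167 CPM in high B12 and 85.2 CPM in low B12. Cr2, the C3d receptor of B cells, was at 56.1 and 47.0 CPM (1.19, 1.03 to 1.37). Itgax was 1.95-fold lower, at 38.5 CPM in high B12 and 75.0 CPM in low B12. In NK cells 0 of 10 were higher and 1 was lower (Lrp1, 12 CPM in high B12 and 31.9 CPM in low B12), against 2.2% and 7.5% of all genes, a share near the background. In Ly6c2-group monocytes 1 of 12 was higher (Fcnb, 7.04 and 4.12 CPM) and 1 lower (Itgax, 14.1 and 22.0 CPM), against 2.62% and 3.95%. In unmatched barcodes 2 of 12 were higher (C5ar2, and Cd46 at 20.7 and 11.5 CPM) and 1 lower (Clu, 0.409 and 10.5 CPM), against 7.04% and 11.1%. In cDC 0 of 8 and in other monocytes 0 of 9 listed genes passed the rule in either direction, against 2.22% higher and 5.97% lower in cDC and 5.8% and 9.24% in other monocytes. Lrp1, an endocytic receptor, was at 271 CPM in high-B12 and 349 CPM in low-B12 other monocytes.

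Across the 14 combinations of class and library, 4824 genes were compared with each member by Pearson correlation of log2(CPM + 10). These points share the same 2 libraries and 7 classes and are a description. C1qa, C1qb and C1qc had coefficients of 0.96 to 0.99 with each other, and among other genes C1qa was most like Zfp609 (0.93), Tcf7l2 (0.91) and Tet2 (0.90), C1qb like Gngt2 (0.94), Tet2 (0.94) and Atg4c (0.94), and C1qc like Zfp609 (0.93), Dcakd (0.92) and Tcf7l2 (0.92). C5ar1 was most like Sfxn5, C5ar2 and the chemokine receptor Cxcr2, all at 0.99. C3 was most like Mgst1 (0.99), Hacd4 (0.98) and Prdx5 (0.98). Cfp was most like Tctex1d2 (0.95), Zfp516 (0.91) and Plbd1 (0.91), and Cd93 like Tmed10 (0.96), Ccl9 (0.94) and Mt1 (0.94). For C3ar1 the leading genes were Pkig (0.86), BE692007 (0.86) and Mif4gd (0.81), over levels close to the counting floor.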

How the data were processed

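Per the file headers, the authors deposited unnormalized UMI counts made with Cell Ranger 4, while version 2.1.1 of Cell Ranger stands in the submitters' processing notes. The genome build is not given in the sources used here, and gene positions come from GENCODE M21 (GRCm38). The deposited counts include empty droplets. Droplets kept had 500 UMIs or more, 200 genes or more and no more than 10% mitochondrial UMIs (6748 high B12, 6510 low B12). Classes went by first match: neutrophil (S100a8 and S100a9 at 5% of UMIs or more), B (Cd79a and Cd79b, 3 UMIs), NK (Ncr1 and Klrb1c, 2), cDC (Cd209a, Clec10a and Flt3, 3) and monocyte (Csf1r, 2), the last split at 3 UMIs of Ly6c2, Ccr2, F13a1 and Fn1. UMI limits are absolute, so deeper barcodes match more often.

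UMIs were summed per class and library and scaled to CPM. Ratios carry exact conditional binomial intervals, CPM exact Poisson intervals and shares exact binomial intervals, all covering counting error only. Pairs needed 50 UMIs over both libraries, and called means past 1.5-fold. Doublets called by Scrublet in scanpy 1.11.5 (329 in high B12, 475 in low B12) were kept, and left out in an alternative. The ratio step was checked on simulated class sums with counting error alone. That check holds no spread between barcodes and says nothing about it. Tools were Python 3.11.15, numpy 2.4.6 and scipy 1.17.1. No sample was left out.

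Genes are named by rule: all 8 members, the 3 other genes most like each member, and listed complement genes at 50 CPM or more in a class. The members and lists were chosen with earlier results of these data known. Macrophage markers come from the cell type lists, and Csf3r, Cd46 and Clu were named after their values were seen. Values of some listed genes are not reported here.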

Additional observations from a re-analysis of the deposited data

Results flagged for a closer look

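The C1q genes moved in opposite directions in different classes, and the difference between those effects was not tested. In Ly6c2-group monocytes the log2 ratio, high B12 over low B12, was -2.01 for C1qa, -1.18 for C1qb and -1.25 for C1qc. In other monocytes it was 1.39 for C1qa, 0.62 for C1qb and 1.43 for C1qc.

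In B cells the log2 ratio was 0.85 for C1qa and 0.72 for C1qc, while C1qa in cDC had -0.59. Without the barcode richest in C1q in each class and library these 3 values were -0.0613, -0.0447 and 0.90.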

How the results depend on the processing

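With all barcodes 11 member-by-class pairs were higher and 7 lower. With doublets left out 6 of 37 measured pairs were higher. With cells thinned to 1000 UMIs 2 of 14 pairs were higher and 0 lower, with fewer pairs measured. Centring on the median ratio of genes, which raises every ratio, gave 4 lower. Leaving out the 10 leading barcodes of each member gave 2 higher of 22 pairs. Under the other alternatives the counts stayed within 1.5 times, but the pairs behind them can differ: with every cell weighted the same, 12 ratios (all cells included) no longer passed 1.5-fold and 8 others did. Among ratios past 1.5-fold, signs turned round for C3ar1 over all cells at the class shares of the low-B12 library (0.22 on the log2 scale), and, without the richest C1q barcode, an alternative chosen after seeing the data, for C1qa in B cells (-0.0613), C1qc in B cells (-0.0447) and C1qa in cDC (0.90). Of the 31 ratios short of 1.5-fold, 22 changed sign under at least 1 alternative, among them C3 over all cells (0.48, and -0.13 at the class shares of the low-B12 library) and C1qc over all cells (-0.31, and 0.20 at those shares). C5ar1 stayed past 1.5-fold over all cells and in unmatched barcodes under every alternative, in cDC and NK cells under every alternative that gave a value, and in B cells except at 0.35 without the 10 leading barcodes and 0.58 with the neutrophil limit at 2%, an alternative added after seeing the data. In cDC, NK and B cells too few UMIs were left for a C5ar1 value without doublets or after thinning. In cDC and NK cells too few were left without the 10 leading barcodes as well. C1qa, C1qb and C1qc in Ly6c2-group monocytes stayed lower under every alternative that gave a value. Thinning left too few UMIs for a value of any of them, and leaving out the 10 leading barcodes too few for C1qa and C1qc. In other monocytes, weighting every cell the same gave 0.09, 0.04 and 0.32 for C1qa, C1qb and C1qc. Neither thinning nor leaving out the 10 leading barcodes gave a value for these genes there. Of 360 shares of cells recomputed, 329 stayed within their interval. No paired analysis was possible because each condition has 1 library. C3ar1 in all classes and C1q in NK cells are limited by depth.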
